A study of Mus musculus with 37 samples.

Results

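The 10 receptors described here bind neuropeptides and feeding hormones. They are the neurotensin receptors Ntsr1 and Ntsr2, the orexin receptors Hcrtr1 and Hcrtr2, the tachykinin receptor Tacr3, the cholecystokinin receptor Cckbr, the corticotropin-releasing hormone receptor Crhr1, the melanocortin receptor Mc4r, the ghrelin receptor Ghsr and the leptin receptor Lepr. They were taken by gene symbol from the 57180 genes in each of the count tables, and all 10 were found in both. Ribosome-bound RNA was sequenced from the ventral midbrain of 37 mice, 1 library per mouse, after pulling down GFP-tagged ribosomes. NuTRAP mice carry an EGFP-L10a ribosomal protein that is made only after Cre recombination, and it was switched on by DAT-IRES-Cre (DAT;NuTRAP, dopamine neurons) or Vgat-ires-Cre (VGAT;NuTRAP, GABA neurons). Every mouse carried a Cre driver and the NuTRAP allele, so the cell types differ in mouse line as well, and a driver marks every ventral midbrain cell that uses it, subtypes included. DAT;NuTRAP libraries came from 9 old mice (4 females and 5 males, 21 months) and 10 young mice (5 females and 5 males, 8 to 10.5 months). VGAT;NuTRAP libraries came from 8 old mice (5 females and 3 males, 21 months, with 1 female of 24 months) and 10 young mice (6 females and 4 males, 7 to 9 months).

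All members except Lepr are G protein-coupled receptors. The neurotensin, orexin, tachykinin and cholecystokinin receptors act mainly through Gq proteins and phospholipase C, whereas Crhr1 and Mc4r raise cyclic AMP through Gs. Lepr is a cytokine-type receptor that signals through JAK2 and STAT3. In the ventral midbrain these receptors let peptides from the hypothalamus, amygdala and brainstem, and hormones from the stomach and fat, act on neurons that control movement, reward and feeding.

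Positions are given on GRCm39, the build the deposited counts were made on, from the GENCODE M39 annotation, and every member is protein coding. Ntsr1 (ENSMUSG00000027568) lies at chr2:180141687-180186773 and Ntsr2 (ENSMUSG00000020591) at chr12:16703383-16710243. Hcrtr1 (ENSMUSG00000028778) lies at chr4:130024004-130033557 and Hcrtr2 (ENSMUSG00000032360) at chr9:76132272-76231138, both on the minus strand. Tacr3 (ENSMUSG00000028172) lies at chr3:134534755-134640340, Cckbr (ENSMUSG00000030898) at chr7:105074688-105120105 and Crhr1 (ENSMUSG00000018634) at chr11:104023164-104066351. Ghsr (ENSMUSG00000051136) lies at chr3:27425356-27433382 and Lepr (ENSMUSG00000057722) at chr4:101574601-101676237. Mc4r (ENSMUSG00000047259) has a single annotated transcript of 2803 bases. Exons of Ntsr2 overlap those of Lpin1 on the other strand, and the strand setting of the counting was not given, so reads of these genes may not be fully separated.

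To show the sequence in front of genes that stood at opposite ends of the cell type comparison, the 250 bases before the annotated start are printed for Ntsr1 and Tacr3, higher in DAT;NuTRAP libraries, and for Cckbr and Hcrtr2, lower there. They come from RefSeq on GRCm38.p6, another build than that of the positions above, at chr2:180499726-180499975 (+ strand), chr3:134828757-134829006 (+ strand), chr7:105425481-105425730 (+ strand) and chr9:76323624-76323873 (- strand). Letters run 5′ to 3′ on the strand of the gene, and capitals mark a match to any of the 5 searched motifs.
Ntsr1: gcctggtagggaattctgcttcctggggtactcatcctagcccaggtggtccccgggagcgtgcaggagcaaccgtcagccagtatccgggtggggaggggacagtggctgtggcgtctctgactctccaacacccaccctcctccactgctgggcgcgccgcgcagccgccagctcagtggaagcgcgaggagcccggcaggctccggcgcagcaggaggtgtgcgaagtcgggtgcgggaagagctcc
Tacr3: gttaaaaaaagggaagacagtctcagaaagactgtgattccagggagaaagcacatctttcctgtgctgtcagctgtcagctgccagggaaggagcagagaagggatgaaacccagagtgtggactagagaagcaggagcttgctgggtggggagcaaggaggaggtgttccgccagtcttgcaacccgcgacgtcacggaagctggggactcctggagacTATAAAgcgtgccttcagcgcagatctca
Cckbr: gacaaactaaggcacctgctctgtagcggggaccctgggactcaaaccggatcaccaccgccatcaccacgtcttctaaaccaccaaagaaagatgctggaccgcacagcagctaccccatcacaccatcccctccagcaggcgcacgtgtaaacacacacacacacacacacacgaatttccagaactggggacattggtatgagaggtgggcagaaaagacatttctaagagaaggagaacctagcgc
Hcrtr2: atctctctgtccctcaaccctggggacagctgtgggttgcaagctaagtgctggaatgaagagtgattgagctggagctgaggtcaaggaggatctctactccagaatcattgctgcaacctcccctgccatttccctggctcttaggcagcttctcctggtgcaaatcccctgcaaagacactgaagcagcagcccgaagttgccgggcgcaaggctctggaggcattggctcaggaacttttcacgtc

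Both strands were searched for each motif, and none of them contains another. The search letters of the element bound by NR4A2, AAAGGTCA, were found in 1.34% of 32851 RefSeq windows of this length. Those of the cyclic AMP response element, TGACGTCA, were found in 1.55%. The core of many homeodomain sites, TAATTA, was found in 4.84%. The core of many zinc finger sites of the GATA family, AGATAA, was found in 9.99%. The box of core promoters, TATAAA, was found in 12.4%, and it gave the only match in the 4 windows, in Tacr3 from -29 to -24 relative to the start. Mc4r was left out of the search of member windows. Of the 12 windows of the other 9 members, 1 more held a match. It was the GATA family core on the opposite strand, at -225 to -220 of the third annotated start of Hcrtr1. The Ntsr1 window had the highest GC content of the 4 (68.4%), against 54.4% in Tacr3, 53.6% in Cckbr and 55.2% in Hcrtr2, and the median of all windows was 52.4%. A match is a string of letters and not a measured binding site.

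Libraries held 13841253 to 38235015 counts in DAT;NuTRAP and 19065284 to 35054329 in VGAT;NuTRAP mice. All 8 dopamine neuron markers (Slc6a3, Th, Ddc, Slc18a2, Nr4a2, Pitx3, En1, Foxa2) were higher and all 7 GABA neuron markers lower in DAT;NuTRAP than in VGAT;NuTRAP libraries. The other cell type's RNA was nevertheless present in each. Summed GABA markers reached 529 to 904 CPM (counts scaled for the depth and composition of each library) in DAT;NuTRAP libraries, against 4023 to 5178 CPM in VGAT;NuTRAP libraries. Summed dopamine markers were 9885 to 14467 CPM in DAT;NuTRAP and 770 to 3137 CPM in VGAT;NuTRAP libraries. Astrocyte, oligodendrocyte and vascular markers were mostly higher in DAT;NuTRAP libraries, with 11 of 12 astrocyte, 8 of 8 oligodendrocyte and 10 of 10 endothelial and mural markers called higher and median log2 fold changes of 1.46, 1.45 and 1.69. Of the 10 microglia markers 1 was called higher and 0 lower, and their median was 0.10. The labels also split each model into a first and a second batch (8 and 11 DAT;NuTRAP, 6 and 12 VGAT;NuTRAP libraries). Second-batch DAT;NuTRAP libraries detected 14323 to 18170 genes, fewer than the 19085 to 21051 of the first batch, while VGAT;NuTRAP libraries detected 18485 to 21803. Each library was of 1 mouse, but the labels do not say which mice were processed together beyond the batch.

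Ranked per kilobase of exon, the neurotensin receptor Ntsr1 was the most abundant member in both cell types and the leptin receptor Lepr the least. In DAT;NuTRAP libraries Ntsr1 averaged 94.9 ± 11.4 CPM per kilobase (SD, n = 19), followed by Tacr3 with 36.2 ± 12.0 and Crhr1 with 12.8 ± 2.26. The ranges of these top members did not overlap from Ntsr1 to Tacr3 to Crhr1. Ntsr2 (7.33 ± 3.27), Hcrtr1 (5.26 ± 1.08) and Ghsr (2.59 ± 1.16) came next, with neighbours that overlapped. Cckbr (1.08 ± 0.725), Hcrtr2 (0.507 ± 0.310), Mc4r (0.444 ± 0.393) and Lepr (0.340 ± 0.216) closed the order, and the last 3 were not separable, since Hcrtr2 exceeded Mc4r in 11 of 19 libraries and Mc4r exceeded Lepr in 10 of 19.

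In VGAT;NuTRAP libraries the same 3 receptors led, with 16.3 ± 4.86 CPM per kilobase for Ntsr1, 10.8 ± 3.58 for Tacr3 and 6.0 ± 0.760 for Crhr1 (SD, n = 18). Here Ntsr1 and Tacr3 overlapped, with Ntsr1 the higher in 16 of 18 libraries. Cckbr moved up to the fourth place (3.24 ± 0.696), ahead of Hcrtr1 (2.93 ± 0.571), Ntsr2 (2.23 ± 0.599), Ghsr (1.97 ± 0.466), Hcrtr2 (1.31 ± 0.263) and Mc4r (0.967 ± 0.243). Lepr was last (0.188 ± 0.0604) and stood apart, below Mc4r in 18 of 18 libraries without overlap.

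**Figure D1:**
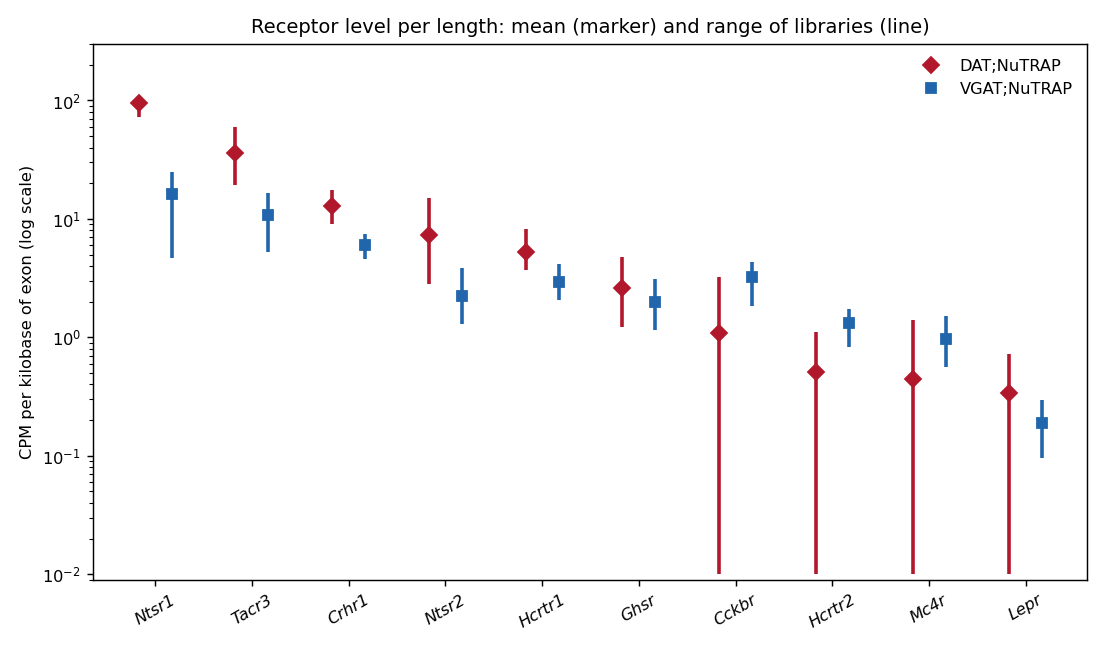
Mean CPM per kilobase of exon of each receptor on a log axis, for DAT;NuTRAP (diamonds, 19 libraries) and VGAT;NuTRAP (squares, 18 libraries), with vertical lines for the range of libraries. Lines that reach the lower end of the axis include libraries with 0 counts, as for Cckbr, Hcrtr2, Mc4r and Lepr in DAT;NuTRAP, and Ntsr1 led in both cell types with 94.9 and 16.3 CPM per kilobase.

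Between cell types, 5 receptors were higher in dopamine than in GABA neuron libraries (Ntsr1, Tacr3, Ntsr2, Crhr1 and Hcrtr1) and 3 were lower (Cckbr, Hcrtr2 and Mc4r), while Ghsr and Lepr did not pass the test. The comparison asked which of the receptors are preferentially found on ribosomes of either cell type, over both ages. It used the quasi-likelihood test of edgeR with batch as a term, called at a Benjamini-Hochberg adjusted p below 0.05 over all genes. The 8 of 10 called have to be read against the 60.5% of 16898 genes called in this comparison (30.0% higher and 30.4% lower). The median log2 fold change of the members was 0.73, against 0.01 over all genes. CPM ranges did not overlap for 3 members (Ntsr1, Tacr3 and Crhr1), while 8.36% of genes did not overlap. In such bulk samples, fewer cells of a type and less RNA per cell cannot be told apart.

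**Figure D2:**
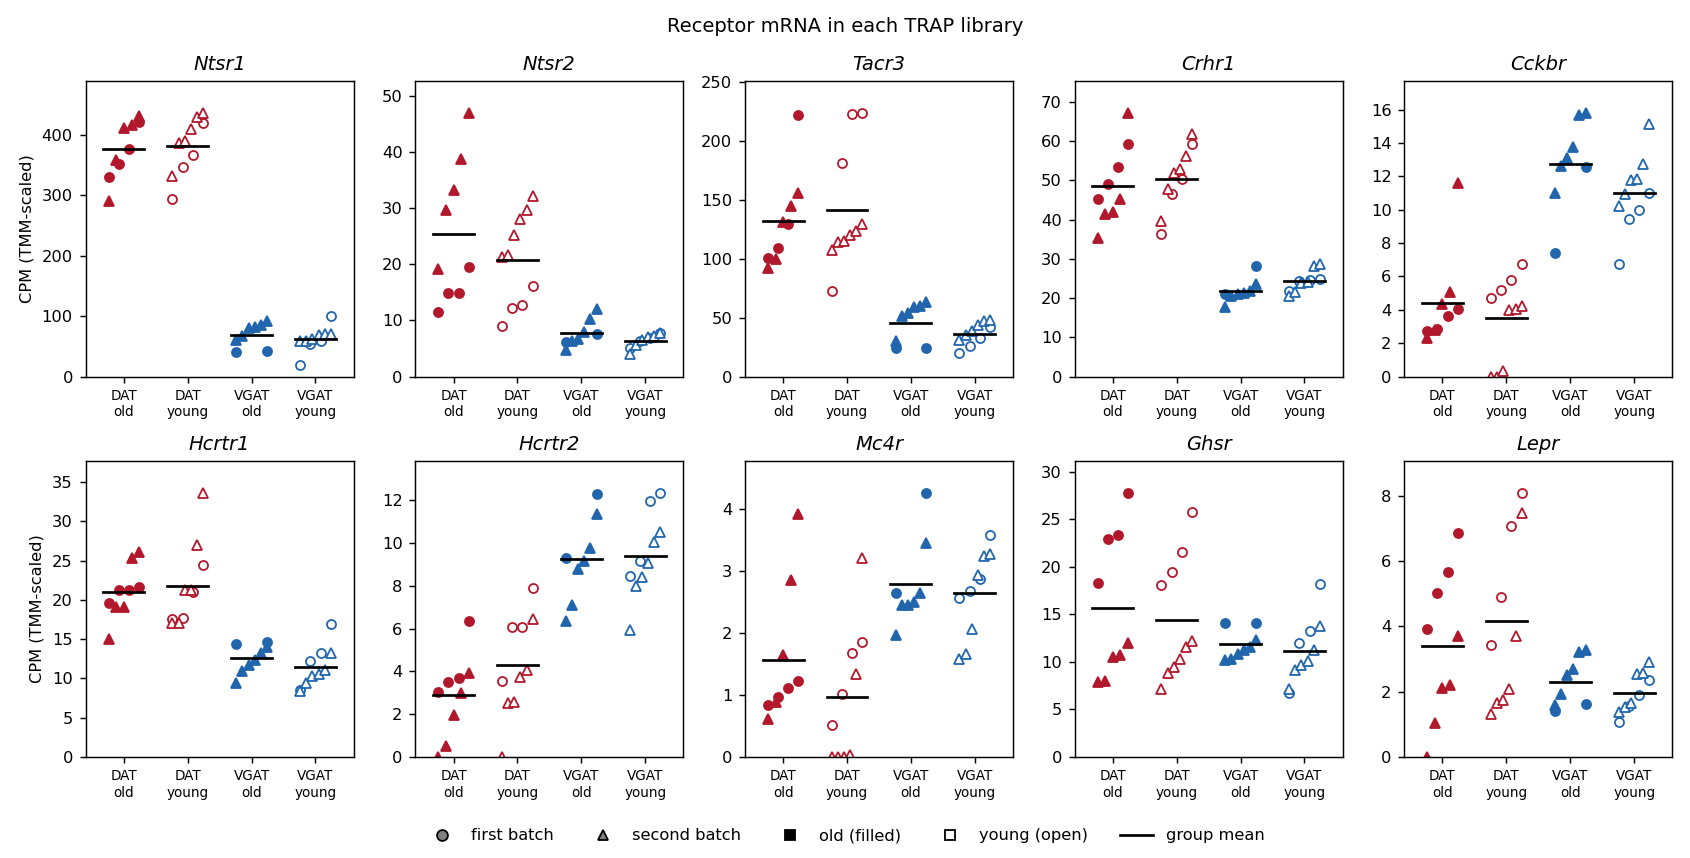
CPM of each receptor in every library, with old before young and DAT;NuTRAP (red) left of VGAT;NuTRAP (blue), circles for the first and triangles for the second batch, and a line at the group mean. Ntsr1, Tacr3 and Crhr1 of DAT;NuTRAP libraries lay above those of all VGAT;NuTRAP libraries, and Ghsr of first-batch DAT;NuTRAP libraries (18.1 to 27.8 CPM) lay above that of second-batch ones (7.16 to 12.1 CPM). In DAT;NuTRAP, 9.54% of all genes separated the batches.

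The neurotensin receptors were both higher in dopamine neuron libraries. Ntsr1, the high-affinity receptor, had a lowest, median and highest level of 290, 386 and 437 CPM in DAT;NuTRAP libraries, against 18.9, 64.6 and 99.7 CPM in VGAT;NuTRAP libraries. Every DAT;NuTRAP library was above every VGAT;NuTRAP library, and the lowest VGAT;NuTRAP value was that of young female 2. Its log2 fold change was 2.57 ± 0.12 (SE; adjusted p = 6.2e-20), the largest of the members. That size lay within the range of the 8 dopamine neuron markers, from 1.95 for Nr4a2 to 3.28 for Th. Across libraries Ntsr1 followed the summed dopamine markers, with a Pearson r of 0.67 in the 19 DAT;NuTRAP and 0.71 in the 18 VGAT;NuTRAP libraries. Without the 2 libraries farthest from the median of the marker sum, r was 0.59 in DAT;NuTRAP and 0.39 in VGAT;NuTRAP, so much of the VGAT;NuTRAP relation rested on those libraries. Summed GABA markers gave r = -0.59 in DAT;NuTRAP and -0.82 in VGAT;NuTRAP libraries, and summed glutamate neuron markers -0.65 and 0.61. Without the 2 libraries farthest from the median of the GABA sum, its r was -0.56 and -0.67. How much of the Ntsr1 RNA in VGAT;NuTRAP libraries came with dopamine neuron RNA was not tested.

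Ntsr2, the low-affinity receptor, is known from astrocytes as well as neurons. It had 8.93, 21.3 and 46.9 CPM as its lowest, median and highest level in DAT;NuTRAP libraries, against 4.08, 6.81 and 12.0 CPM in VGAT;NuTRAP libraries. The ranges overlapped only at their edges, and the low DAT;NuTRAP values were those of the first batch. The log2 fold change was 1.68 ± 0.14 (adjusted p = 1.5e-13), near the median of 1.46 of the astrocyte markers. Ntsr2 followed summed astrocyte markers across DAT;NuTRAP libraries with r = 0.85 and across VGAT;NuTRAP libraries with r = 0.52, and oligodendrocyte markers with r = 0.92 and r = 0.63. Microglia markers gave r = 0.66 in DAT;NuTRAP and -0.17 in VGAT;NuTRAP libraries, and endothelial and mural markers 0.23 and 0.57. These libraries share batch and depth, and r with the oligodendrocyte markers in VGAT;NuTRAP was 0.12 without the 2 libraries farthest from the median of that sum. The astrocyte sum spanned 900 to 2331 CPM in DAT;NuTRAP and 890 to 1428 CPM in VGAT;NuTRAP libraries, and none of the 12 markers was at 0 in any library. Aldoc, the 1 astrocyte marker that was lower, made up a large part of that sum, with a mean of 468 CPM in DAT;NuTRAP and 667 CPM in VGAT;NuTRAP libraries. The part of glial RNA in the Ntsr2 difference was not tested. Lpin1, on the other strand at the Ntsr2 locus, went the other way (log2 fold change -0.95 ± 0.07, adjusted p = 4.2e-16), with means of 43.4 CPM in DAT;NuTRAP and 81.4 CPM in VGAT;NuTRAP libraries. As a share of both neurotensin receptors per length, Ntsr1 made up 92.8% ± 3.15 in DAT;NuTRAP (SD, n = 19) and 87.1% ± 4.63 in VGAT;NuTRAP libraries (SD, n = 18).

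**Figure D3:**
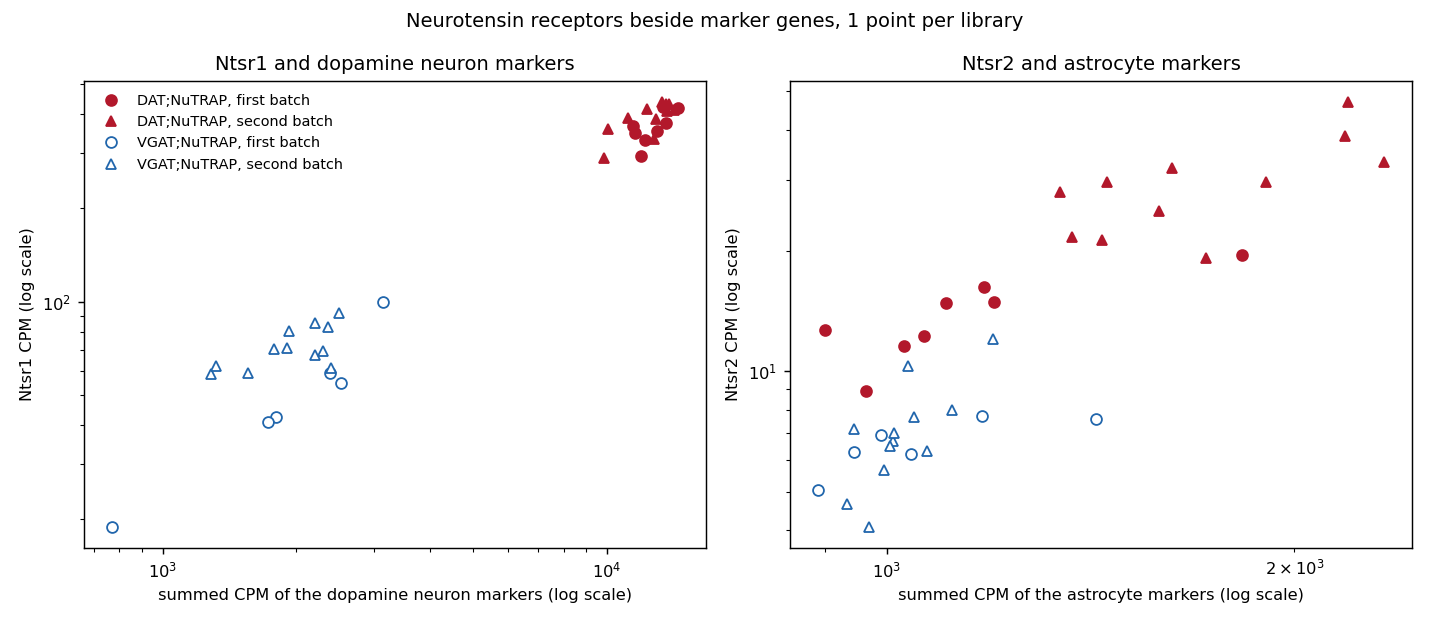
Left, Ntsr1 CPM against summed CPM of 8 dopamine neuron markers, and right, Ntsr2 CPM against summed CPM of 12 astrocyte markers, 1 point per library on log axes, filled for DAT;NuTRAP and open for VGAT;NuTRAP. Within DAT;NuTRAP, Ntsr2 and the astrocyte sum were both mostly higher in second-batch (triangles) than in first-batch libraries (circles), and the lowest Ntsr1 point of VGAT;NuTRAP (18.9 CPM) had the lowest dopamine marker sum (770 CPM).

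Tacr3, the receptor for neurokinin B, was measured at 72.7, 124 and 224 CPM (lowest, median and highest) in DAT;NuTRAP libraries, against 19.8, 40.2 and 63.1 CPM in VGAT;NuTRAP libraries. The groups did not overlap, although first-batch DAT;NuTRAP libraries spread widely, with 4 libraries from 181 to 224 CPM and 4 from 72.7 to 130 CPM. Its log2 fold change was 1.75 ± 0.16 (adjusted p = 1.5e-11). Crhr1, the main receptor of corticotropin-releasing hormone in the stress response, had 35.3, 49.0 and 67.3 CPM in DAT;NuTRAP libraries, against 17.7, 22.7 and 28.7 CPM in VGAT;NuTRAP libraries. Here too every dopamine neuron library exceeded every GABA neuron library. Its log2 fold change of 1.10 ± 0.08 (adjusted p = 4.1e-16) had the smallest error among the members.

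The orexin receptors went in opposite directions. Hcrtr1, which prefers orexin A, had 15.0, 21.2 and 33.6 CPM in DAT;NuTRAP libraries, against 8.42, 12.0 and 17 CPM in VGAT;NuTRAP libraries, a log2 fold change of 0.83 ± 0.10 (adjusted p = 9.6e-10). The lowest dopamine neuron libraries overlapped the highest GABA neuron libraries. Hcrtr2, which binds both orexins, had 0, 3.53 and 7.91 CPM in DAT;NuTRAP libraries, against 5.95, 9.17 and 12.3 CPM in VGAT;NuTRAP libraries. The log2 fold change was -1.54 ± 0.29 (adjusted p = 1.9e-05). Of the DAT;NuTRAP libraries, old female 2 and young female 5, both second batch, had 0 Hcrtr2 counts, which allows up to 0.214 and 0.165 CPM (3 counts, counting error only). Per length, Hcrtr1 made up 91.1% ± 5.58 of the orexin receptor signal in DAT;NuTRAP (SD, n = 19), against 69.0% ± 4.34 in VGAT;NuTRAP libraries (SD, n = 18).

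Cckbr, the main brain receptor for cholecystokinin, was lower in dopamine neuron libraries. Its lowest, median and highest levels were 0, 4.04 and 11.6 CPM in DAT;NuTRAP libraries, against 6.74, 11.8 and 15.8 CPM in VGAT;NuTRAP libraries. The overlap came from 1 DAT;NuTRAP library, old female 2, at 11.6 CPM, and from young female 1, whose 6.75 CPM just exceeded the lowest VGAT;NuTRAP value. Old female 2 had the fewest counts (13841253) and detected genes (14323) of all libraries. The log2 fold change was -1.61 ± 0.34 (adjusted p = 0.00011). Young females 3 and 4 of DAT;NuTRAP, both second batch, had 0 counts, which allows up to 0.184 and 0.102 CPM. The precursor of its ligand, Cck, ran the other way, with a mean of 170 ± 72.8 CPM in DAT;NuTRAP (SD, n = 19) and 13.5 ± 3.15 CPM in VGAT;NuTRAP libraries (SD, n = 18) and a log2 fold change of 3.63 ± 0.14 (adjusted p = 4.9e-23).

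Among the receptors of the feeding signals, Mc4r was lower in dopamine neuron libraries. Mc4r binds the melanocortins and the antagonist agouti-related peptide. It had 0, 1.01 and 3.92 CPM in DAT;NuTRAP libraries, against 1.58, 2.64 and 4.26 CPM in VGAT;NuTRAP libraries. The log2 fold change was -1.15 ± 0.42 (adjusted p = 0.017). The highest DAT;NuTRAP values lay inside the VGAT;NuTRAP range, and 3 second-batch young females had 0 counts, which allows up to 0.184, 0.102 and 0.165 CPM. Ghsr, the receptor of the stomach hormone ghrelin, had 7.16, 12.0 and 27.8 CPM in DAT;NuTRAP libraries, against 6.68, 11.2 and 18.2 CPM in VGAT;NuTRAP libraries. Its log2 fold change of 0.21 ± 0.12 (adjusted p = 0.14) had an approximate 95% interval of -0.03 to 0.44. Lepr had 0, 3.69 and 8.08 CPM in DAT;NuTRAP libraries, against 1.06, 1.92 and 3.27 CPM in VGAT;NuTRAP libraries, a log2 fold change of 0.63 ± 0.33 (adjusted p = 0.10) with an interval of -0.03 to 1.28. The single DAT;NuTRAP library at 0 counts of Lepr was old male 4 of the second batch (up to 0.0805 CPM). Without it the log2 fold change was 0.76 (adjusted p = 0.011).

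Ghsr was the only member that separated the batches of DAT;NuTRAP, and Lepr ranges of the cell types overlapped in the second batch and not in the first. Ghsr had 18.1 to 27.8 CPM in the 8 first-batch DAT;NuTRAP libraries and 7.16 to 12.1 CPM in the 11 second-batch ones. These ranges did not overlap, as for 9.54% of genes in DAT;NuTRAP, so 1 of 10 members was near the share of all genes. No member separated the VGAT;NuTRAP batches (6.45% of genes did). In VGAT;NuTRAP libraries Ghsr was at 6.68 to 18.2 CPM in the first and 7.16 to 13.8 CPM in the second batch. Lepr had 3.42 to 8.08 CPM in first-batch DAT;NuTRAP libraries, all above the 1.06 to 2.35 CPM of first-batch VGAT;NuTRAP libraries. In the second batch it had 0 to 7.48 CPM in DAT;NuTRAP and 1.36 to 3.27 CPM in VGAT;NuTRAP libraries, which overlapped. Ntsr1, Tacr3 and Crhr1, whose cell type ranges did not overlap over all libraries, did not overlap in the first batch either. The share of all genes without overlap in that batch is not given here. Whether a first batch of DAT;NuTRAP was processed with a first batch of VGAT;NuTRAP is not given in the sources used here.

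Within batches, the 5 receptors that were higher in dopamine neurons were higher and called in both. The share of all genes called in a single batch over both ages is not given here, so these calls are not set against it. In the first batch alone, 5373 of 16713 genes were called in young and 4651 in old mice. For the first and then the second batch, Ntsr1 gave log2 fold changes of 2.88 and 2.43 and Tacr3 2.52 and 1.37. Ntsr2 gave 1.03 and 2.04, Crhr1 1.03 and 1.09, and Hcrtr1 0.59 and 0.94. Among those lower, Cckbr gave -1.16 and -1.98 and Hcrtr2 -1.12 and -1.83, all called. Mc4r was called in the first batch alone (-1.48, adjusted p = 0.00021) and not in the second (-1.05, adjusted p = 0.18). Ghsr was called in the first batch (0.73, adjusted p = 0.0040) and not in the second (-0.13, adjusted p = 0.46). The same held for Lepr, with 1.79 (adjusted p = 1.3e-05) in the first and -0.02 (adjusted p = 0.98) in the second batch. With a batch term of its own for each model, both were called, Ghsr at 0.32 (adjusted p = 0.0075) and Lepr at 0.88 (adjusted p = 0.013).

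A test of the cell type difference in the second minus that in the first batch, chosen after these values were seen, called 4 of 10 members, against 29.1% of 16898 genes. The difference was larger in the second batch for Ntsr2 (1.05 ± 0.24, adjusted p = 0.00054 in edgeR). It was smaller for Tacr3 (-1.06 ± 0.28, adjusted p = 0.0039), Ghsr (-0.85 ± 0.21, adjusted p = 0.0014) and Lepr (-1.73 ± 0.62, adjusted p = 0.030). Glial markers moved with the batch in DAT;NuTRAP, where summed oligodendrocyte markers were 1137 to 2350 CPM in the second and 513 to 779 CPM in the first batch. Their part in the batch difference of these receptors was not tested.

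**Figure D4:**
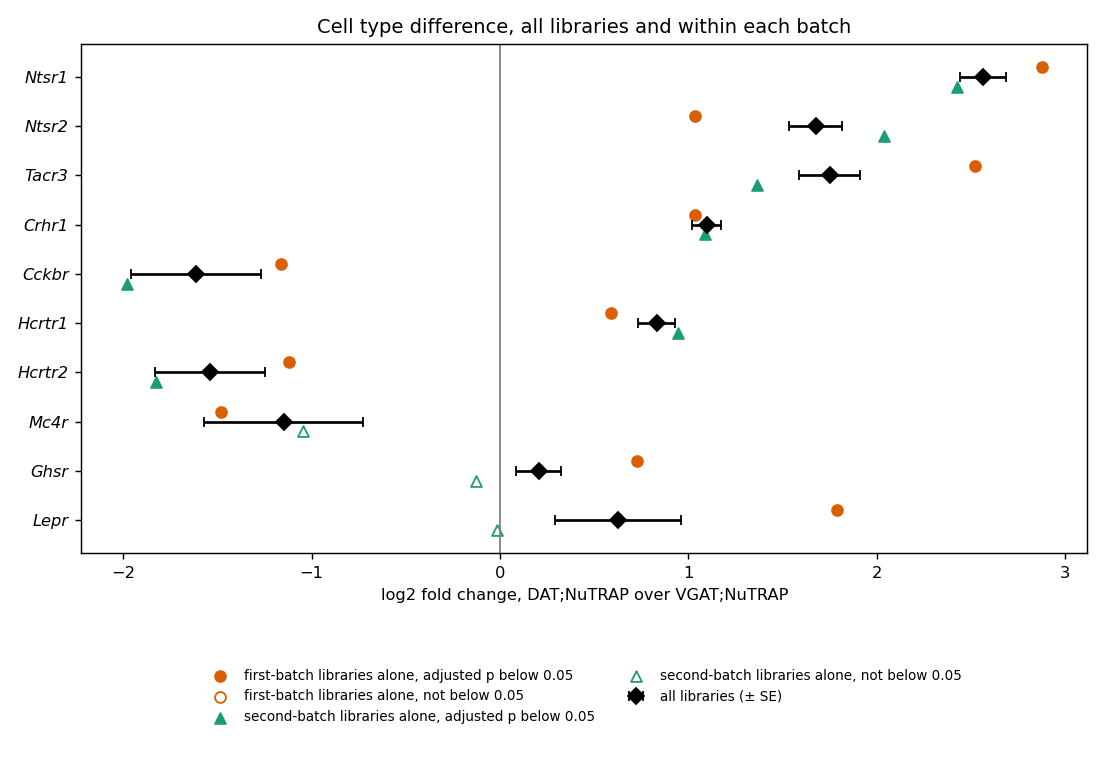
Log2 fold change of each receptor, DAT;NuTRAP over VGAT;NuTRAP, from all libraries (diamonds, ± SE), from the first batch alone (circles) and from the second batch alone (triangles), filled where the adjusted p was below 0.05. Ghsr and Lepr were at 0.73 and 1.79 in the first batch and at -0.13 and -0.02 in the second, while Crhr1 was at 1.03 and 1.09.

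The cell type differences of all members had the same sign at each age. In old mice 7 of 10 members were called, against 46.8% of genes, and in young mice 8 of 10, against 49.8% of genes. Ntsr1 differed by 2.52 ± 0.18 in old and 2.62 ± 0.16 in young mice, Tacr3 by 1.54 ± 0.24 and 1.96 ± 0.22, and Crhr1 by 1.14 ± 0.11 and 1.05 ± 0.10. Ntsr2 differed by 1.75 ± 0.21 in old and 1.60 ± 0.19 in young mice, and Hcrtr1 by 0.72 ± 0.14 and 0.94 ± 0.13. Cckbr was lower by -1.56 ± 0.49 in old and -1.67 ± 0.47 in young mice, and Hcrtr2 by -1.89 ± 0.43 and -1.19 ± 0.39. Mc4r passed in young mice (-1.45 ± 0.58, adjusted p = 0.034 in edgeR) and not in old mice (-0.85 ± 0.61, adjusted p = 0.27). These values do not show that the ages differ. The test of that difference, age by cell type, called 0 of 10 members and 0% of genes, with 0 members at an unadjusted p below 0.05 against 2.76% of genes. Its largest values were -0.70 ± 0.57 for Hcrtr2, -0.69 ± 0.63 for Lepr and 0.61 ± 0.83 for Mc4r.

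With age, no receptor changed in either cell type by this test. In DAT;NuTRAP mice 0 of 10 members were called by edgeR, against 0.00672% of 14889 genes, and in VGAT;NuTRAP mice 0 of 10, against 0.0256% of 15607 genes. At an unadjusted p below 0.05 there was 1 member in DAT;NuTRAP (5.28% of genes) and 0 in VGAT;NuTRAP (5.98% of genes), and DESeq2 and limma-voom also called 0. Old and young CPM ranges overlapped for every member (they did not for 0.00672% of genes in DAT;NuTRAP and 0.0192% in VGAT;NuTRAP). The median log2 fold change of the members, old over young, was -0.03 in DAT;NuTRAP and 0.14 in VGAT;NuTRAP mice, against 0.00 over all genes in both.

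The precision of these age values differed widely. For the abundant Ntsr1, old and young DAT;NuTRAP libraries had medians of 376 and 388 CPM (290 to 431 and 295 to 437 CPM), and the log2 fold change was -0.02 ± 0.07 with an approximate 95% interval of -0.16 to 0.13. Crhr1 had medians of 45.4 CPM in old and 51.1 CPM in young DAT;NuTRAP libraries and a log2 fold change of -0.05 ± 0.12, with an interval of -0.28 to 0.17. Tacr3 gave -0.10 ± 0.19, Hcrtr1 -0.06 ± 0.14 and Ghsr 0.04 ± 0.15. The 4 receptors with libraries at 0 had the largest errors, with 0.67 ± 0.90 for Mc4r, 0.45 ± 0.68 for Cckbr, -0.66 ± 0.58 for Hcrtr2 and -0.49 ± 0.51 for Lepr. The interval for Mc4r ran from -1.09 to 2.43 and so held sizeable changes in either direction.

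Ntsr2 had the smallest unadjusted p with age in DAT;NuTRAP (0.044, adjusted p = 0.93 in edgeR). Its lowest, median and highest levels were 11.5, 19.5 and 46.9 CPM in old and 8.93, 21.5 and 32.2 CPM in young libraries. The groups overlapped across most of their range, and the log2 fold change was 0.31 ± 0.15. In VGAT;NuTRAP it was 0.27 ± 0.16, with 4.65, 7.14 and 12.0 CPM in old and 4.08, 6.71 and 7.73 CPM in young libraries. Beside it, 12 of 12 astrocyte markers had a positive age value in DAT;NuTRAP (median 0.42) and 11 of 12 in VGAT;NuTRAP (median 0.29). Oligodendrocyte markers were positive for 8 of 8 in both models, with medians of 0.28 in DAT;NuTRAP and 0.31 in VGAT;NuTRAP. Microglia markers were positive for 9 of 10 in DAT;NuTRAP (median 0.73) and 7 of 10 in VGAT;NuTRAP (median 0.28). None of these markers was called with age by edgeR, and their part in the Ntsr2 values was not tested.

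In VGAT;NuTRAP mice 9 of 10 members had a positive age value, none called. Crhr1 was the exception, at -0.14 ± 0.08, with medians of 21.3 CPM in old and 24.2 CPM in young libraries. Hcrtr1 and Tacr3 both gave 0.19, with errors of 0.12 and 0.18, and Cckbr gave 0.16 ± 0.11. Lepr gave 0.15 ± 0.22, Ghsr 0.14 ± 0.14 and Mc4r 0.12 ± 0.19, and Ntsr1 (0.06 ± 0.23) and Hcrtr2 (0.03 ± 0.13) were closest to no change. None of the VGAT;NuTRAP libraries lacked counts of a member, and the errors of Hcrtr2, Cckbr, Mc4r and Lepr were smaller there than in DAT;NuTRAP.

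**Figure D5:**
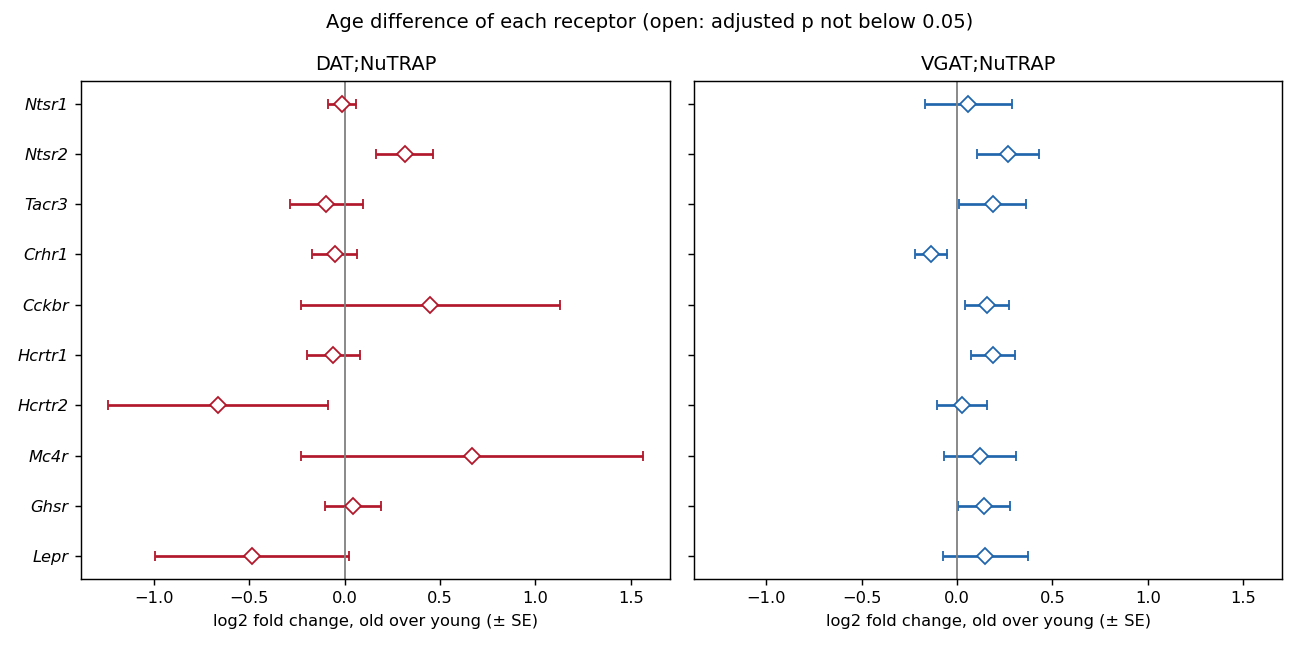
Log2 fold change of each receptor, old over young, in DAT;NuTRAP (left, 9 old and 10 young libraries) and VGAT;NuTRAP (right, 8 old and 10 young libraries), with standard errors and open symbols because no adjusted p was below 0.05. Errors in DAT;NuTRAP ran from 0.07 for Ntsr1 to 0.90 for Mc4r.

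Within each sex, edgeR called 0 of 10 members with age in either model, against 0% of genes in DAT;NuTRAP females and in DAT;NuTRAP males, 0.0320% in VGAT;NuTRAP females and 0.0315% in VGAT;NuTRAP males. At an unadjusted p below 0.05 there were 2 members in DAT;NuTRAP females (4.05% of genes), 0 in DAT;NuTRAP males (5.50%), 0 in VGAT;NuTRAP females (5.59%) and 1 in VGAT;NuTRAP males (5.12%). DESeq2 called 1 member, Mc4r in DAT;NuTRAP females, where it called 31 of 14839 genes, and limma-voom called 0 members in each sex of each model. Tacr3 stood at 223, 145, 131 and 156 CPM in old DAT;NuTRAP females, against 181, 223, 108, 120 and 114 CPM in young females, a log2 fold change of 0.27 ± 0.10 (edgeR, adjusted p = 1.00). In old DAT;NuTRAP males it stood at 101, 109, 130, 100 and 91.9 CPM, against 224, 72.7, 130, 115 and 124 CPM in young males, a log2 fold change of -0.37 ± 0.23 (edgeR, adjusted p = 0.92). Within either sex the old and young values overlapped over both batches. In the second batch, old females had 145, 131 and 156 CPM and young females 108, 120 and 114 CPM. Old males of that batch had 100 and 91.9 CPM and young males 130, 115 and 124 CPM. First-batch females had 223 CPM in old and 181 and 223 CPM in young mice. First-batch males had 101, 109 and 130 CPM in old and 224 and 72.7 CPM in young mice. The difference between the sexes, males minus females, was -0.62 ± 0.30 with an unadjusted p of 0.049 in edgeR and an adjusted p of 1.00, and so did not pass.

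In VGAT;NuTRAP males Tacr3 had 24.6, 54.0 and 59.0 CPM in old and 19.8, 48.4, 30.7 and 38.7 CPM in young mice. The log2 fold change was 0.48 ± 0.14 in edgeR (adjusted p = 0.77), and in females it was 0.08 ± 0.25. The 3 old males spread as widely as the young ones, and the ranges overlapped over both batches. The first-batch males were the old one at 24.6 CPM and the young one at 19.8 CPM. In the second batch, old males had 54.0 and 59.0 CPM and young males 48.4, 30.7 and 38.7 CPM. Crhr1 of all VGAT;NuTRAP males did not overlap between ages, with 20.7 to 21.1 CPM in old and 21.7 to 28.7 CPM in young mice. That held for 4.63% of genes, and the log2 fold change of Crhr1 was -0.18 ± 0.13 (edgeR, adjusted p = 0.96). The test of age by sex called 0 of 10 members in either model, against 0% of genes. At an unadjusted p below 0.05 it held 1 member, Tacr3, in DAT;NuTRAP (4.25% of genes) and 0 in VGAT;NuTRAP (5.09%). Mc4r in DAT;NuTRAP females was at 1.11, 3.92, 2.85 and 0.882 CPM in old mice, against 1.01, 1.86, 0, 0 and 0 CPM in young mice. The 3 young females at 0 were of the second batch. DAT;NuTRAP males of that batch had 1.64 and 0.614 CPM in old and 3.21, 0.0259 and 1.33 CPM in young males. The fitted fold change of Mc4r in females depends on how zeros are handled and is not given.

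Related genes of the same pathways, from lists drawn up for these receptors, were set beside them. Their counts between cell types stand against the 60.5% of all genes called (30.0% higher and 30.4% lower) and the median log2 fold change of 0.01 over all genes. Of the 14 ligand precursor genes, 13 were in the tables and 10 were tested between cell types. Cck (3.63), Pomc (1.75 ± 0.37), the precursor of melanocortins, and Crh (1.47 ± 0.43) were higher in DAT;NuTRAP libraries. Tac2 (-2.12 ± 0.67), which encodes neurokinin B, and Nts (-1.28 ± 0.29), which encodes neurotensin, were lower. Tac2 averaged 1.73 ± 1.54 CPM in DAT;NuTRAP (SD, n = 19) and 11.2 ± 11.1 CPM in VGAT;NuTRAP libraries (SD, n = 18), and Nts 4.77 ± 2.74 and 12.5 ± 7.95 CPM. Ntsr1 and Tacr3 were higher in DAT;NuTRAP libraries, in which their ligand genes Nts and Tac2 were lower. Cckbr and Mc4r were lower there, while Cck and Pomc were higher. Crhr1 and its ligand gene Crh, by contrast, were both higher. Crh was low in both models, at 2.49 ± 1.33 CPM in DAT;NuTRAP (SD, n = 19) and 1.06 ± 1.15 CPM in VGAT;NuTRAP libraries (SD, n = 18). It had 0 counts in 1 DAT;NuTRAP library. A relation between receptors and ligand genes was not tested. Hcrt, the orexin precursor of hypothalamic neurons, had 0 counts in 13 of 19 DAT;NuTRAP and 7 of 18 VGAT;NuTRAP libraries.

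Of 51 tested other peptide and feeding hormone receptors, 10 were higher and 23 lower in DAT;NuTRAP libraries, so that the share called was close to the 60.5% of all genes, and the median log2 fold change was -0.61, against 0.01 over all genes. The largest were Prokr1, a prokineticin receptor, which had 0.151 ± 0.241 CPM in DAT;NuTRAP (SD, n = 19) and 2.0 ± 1.08 CPM in VGAT;NuTRAP libraries (SD, n = 18), and Npbwr1, a neuropeptide B and W receptor (2.96 ± 0.18). Qrfpr (-2.51 ± 0.35), the receptor of the peptide QRFP, and Sstr1 (-2.39 ± 0.24), a somatostatin receptor, were lower. Mc3r, the other brain melanocortin receptor, was higher (2.28 ± 0.29) while Mc4r was lower. Cckar, the other cholecystokinin receptor, was lower (-0.78 ± 0.26), as was the tachykinin receptor Tacr1 (-0.61 ± 0.10), opposite to Tacr3.

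Of 6 tested genes for binding or accessory proteins, 1 was higher and 5 were lower. Crhbp, which binds corticotropin-releasing hormone outside cells, fell by 1.18 on the log2 scale in DAT;NuTRAP relative to VGAT;NuTRAP libraries, and Mrap2, a partner of Mc4r and Ghsr, by 0.76. The sorting receptors Sorl1 (-0.66 ± 0.06) and Sort1 (-0.63 ± 0.06), the second of which binds neurotensin, were lower as well. Of 9 Gs signalling genes 8 were lower, against 30.4% of all genes, led by the adenylyl cyclases Adcy9 (-1.85 ± 0.17), Adcy8 (-1.58 ± 0.12) and Adcy2 (-1.16 ± 0.05), and Adcy5 was higher (0.33 ± 0.06). Of 8 Gq signalling genes 4 were higher and 2 lower, with phospholipase Plcb3 at 1.30 ± 0.18, the G protein genes Gna14 at 1.67 ± 0.68 and Gna11 at 0.34 ± 0.04, and the calcium release channel Itpr1 at -0.50 ± 0.12. Of 10 genes of leptin receptor signalling 3 were higher and 4 lower, among them Stat5a (1.10 ± 0.26), Irs2 (-0.71 ± 0.07), Irs1 (-0.52 ± 0.08) and Jak2 (-0.41 ± 0.09). Of 7 receptor kinases and arrestins 3 were higher and 2 lower, with Grk3 (0.97 ± 0.06) and Arrb1 (-0.45 ± 0.05) the largest in each direction. With age, 0 genes of any of these lists were called by edgeR in DAT;NuTRAP or VGAT;NuTRAP mice.

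To describe which genes varied most like each receptor, log2 CPM was correlated over the 37 libraries after the mean of each model and batch was subtracted, among 14298 genes. Ntsr1 was closest to Dlk1 (r = 0.90), Drd2 (0.88), the dopamine D2 receptor, and Nr4a2 (0.87). For Ntsr2, 2310022B05Rik (0.78) and Plpp3 (0.76) were among the closest. Hcrtr1 was closest to Nol7 (0.71), Foxa2 (0.66) and Psmg4 (0.64), and Tacr3 to Wscd1 (0.76), Lpl (0.73) and Grp (0.70). Crhr1 had Myl6b (0.68) and Gm13127 (0.67) among its closest genes. Ghsr was closest to Gfra1 (0.66), a GDNF receptor, Foxa1 (0.63) and Slc39a12 (0.63). For Hcrtr2, Cckbr, Mc4r and Lepr the leading values were Kcnt2 (0.93), Lin9 (0.89), Gm14296 (0.87) and Cep152 (0.83). These 4 members had 1 to 3 DAT;NuTRAP libraries at 0 counts each, and the part of those libraries in the values was not tested. Among the members themselves the highest r was 0.52, between Cckbr and Mc4r, whose zeros fell in some of the same young females, followed by 0.40 between Ntsr1 and Ghsr, and the lowest was -0.42, between Hcrtr2 and Cckbr.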

How the data were processed

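Reads had already been turned into a table for each model, and these deposited tables give raw read counts for 57180 genes in 37 libraries. The authors sequenced poly-A libraries of GFP-bound RNA and, per the labels, aligned with STAR 2.7.10b to mm39 and counted with featureCounts. Its version, annotation and strand setting are not given in the sources used here. Low-count filtering, removal of glial genes and batch correction by the authors came later and are not in the tables. Input fractions were not analysed here.

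Model, age, sex and batch of a library came from the labels, and every column was used. The quasi-likelihood test of edgeR 4.0.16 was run under R 4.3.3 with TMM scaling, robust dispersions and filterByExpr at a minimum count of 10. Cell types, and age by cell type, were compared in 1 model of all 37 libraries with batch as a term. Old was compared with young within each model, and within each sex of a model, with batch as a term, as was age by sex. P-values were adjusted by Benjamini-Hochberg over all genes tested and called below 0.05. The standard error is that implied by the test. All 10 members passed the filter in every comparison. CPM are TMM-scaled over the 37 libraries. Levels per length use the union of GENCODE M39 exons. Floors of 3 counts cover counting error only.

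All members are described, with up to 4 called genes of each related list by size of change and the 3 genes most like each member, of which 2 are not reported here. Nts, Hcrt, Mc3r, Cckar, Tacr1, Adcy5 and Gna11 were named after their values were seen. Members and lists were chosen with earlier results of these data known. Of 125 related genes 123 matched a symbol. In 70 pairs of libraries of 1 condition no duplicate was found, with chi-square over degrees of freedom at 5.32 or more. Alternatives were RLE factors, DESeq2 1.42.0, limma-voom (limma 3.58.1), other filters, other batch or sex terms, a replicate block, single batches, fewer ages, each library left out and another transcript length. The tests were tried on simulated data.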

Additional observations from a re-analysis of the deposited data

Results flagged for a closer look

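A library far from the others of its age and model was sought in 40 groups, and 2 stood apart, where chance alone flags about 1 group in 20. Cckbr was at 11.6 CPM (163 counts) in DAT;NuTRAP old female 2, while the next of the 9 old libraries was at 5.07 CPM. The same library had 0 counts of Hcrtr2, and the fewest counts (13841253) and detected genes (14323) of all 37 libraries. The part of library quality in its values was not tested. Tacr3 was at 223 CPM in DAT;NuTRAP old female 1, a first-batch library, while the next old library was at 156 CPM. Among young DAT;NuTRAP libraries 2 others reached that level, at 223 and 224 CPM.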

How the results depend on the processing

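Over 49 settings, 4363 of 4450 recomputed values kept their side of the threshold or stayed within 1.5 times a count, and 87 did not. Of the values called in the main setting or the alternative, 0 reversed. Changes of sign in values called in neither were not counted. For example, over both ages Ghsr went from 0.21 to -0.13 and Lepr from 0.63 to -0.02 in the second batch alone. Most of the 87 are small counts over all genes. Of the counts of members called, 2 went beyond that margin, and smaller shifts were not counted. Between cell types over both ages, Ghsr and Lepr were also called with a batch term of its own for each model and in the first batch alone. Mc4r was lost there in the second batch alone. DESeq2 called 1 member with age in DAT;NuTRAP females (Mc4r, adjusted p = 0.012), where it called 31 of 14839 genes. Without a low-count filter 1 member was called in VGAT;NuTRAP males (Tacr3, adjusted p = 0.027), where 80 of 25936 genes were called. Between cell types over both ages, Lepr also passed with DESeq2 (0.64, adjusted p = 0.046) and without a batch term (0.82), and Ghsr with limma-voom (0.29, adjusted p = 0.043) and without a batch term (0.39). In young mice Mc4r was lost without mice of other ages (-1.58, adjusted p = 0.051), without DAT;NuTRAP young male 2 (-1.38, adjusted p = 0.052) and without young male 4 (-1.30, adjusted p = 0.050). Lepr in young mice passed without any of 5 DAT;NuTRAP libraries or 1 VGAT;NuTRAP library (1.00 to 1.08). In the first batch alone, Hcrtr1 was not called in old mice (0.52, adjusted p = 0.061), whereas Mc4r was (-1.75). In the second alone, Hcrtr2 (-1.44, adjusted p = 0.064) and Mc4r (-1.68, adjusted p = 0.14) were lost in young mice and Cckbr in old mice (-1.43, adjusted p = 0.13). The cause was not tested.

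Genes called with age numbered 1 in DAT;NuTRAP (12 with DESeq2, 3 with limma-voom) and 4 in VGAT;NuTRAP (23 with DESeq2, 9 without a filter, 52 in the second and 0 in the first batch alone). Same-numbered old and young mice were not treated as pairs. Their deviations correlated above 0.1 in 4 of 9 DAT;NuTRAP and 2 of 8 VGAT;NuTRAP pairs. These deviations were not centred by batch, so pairing and a shared batch cannot be told apart in them. In DAT;NuTRAP, old female 1 gave r = 0.41 with young female 1 and 0.40 with young female 2 of the same batch. With a replicate block, 1 gene was called with age in DAT;NuTRAP and 7 in VGAT;NuTRAP, and no count of members changed. Per length of the longest transcript, Lepr and Mc4r changed places in DAT;NuTRAP and Ghsr and Hcrtr2 in VGAT;NuTRAP, and the DAT;NuTRAP ranges of Tacr3 and Crhr1 overlapped.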
